A study of Mus musculus with 145 samples.

Results

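Insertions of the piggyBac transposon were examined in 8 genes that restrain PI3K-AKT-mTOR signalling: Pik3r1, Inpp4b, Deptor, Phlpp1, Phlpp2, Tsc1, Tsc2 and Stk11. The genes were listed by name, and their rows were found by Entrez gene identifier among 13391 gene regions. Of 9 genes listed, 8 had a row, and Inppl1, which encodes a 5-phosphatase of the lipid PIP3, was not analysed here. The 8 regions listed 137 of the 198107 insertion sites of the study, and 66 of these were kept as hits, of 101078 kept sites in all. A site was a hit in a tumour when it had at least 10 reads there, and where several tumours had reads at 1 position and strand, the site was assigned to the one with the most.

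The tumours came from mammary fat pads of mice that joined WAP-Cre with LSL-PB, LSL-PIK3CA(H1047R) and ATP1. The milk protein promoter WAP drives Cre in mammary epithelium from late pregnancy, Cre switches on the transposase (PB) and the oncogenic PI3K alpha catalytic subunit PIK3CA H1047R, and ATP1 is the mobile donor. Every tumour of both groups therefore carried the same oncogene and the same mutagen, and no group without either was analysed. The 94 untreated tumours came from 23 mice by title. One of these libraries, with the suffix R2, shares mouse and gland with another by title and was counted as a tumour of its own; neither held a brake hit, and without it any brake was hit in 31.2% of 93. The 51 tumours called resistant came from 25 mice that received the PI3K alpha inhibitor BYL719 (alpelisib) at 30 mg/kg daily once a tumour had reached 250 mm3, and each had grown over at least 3 consecutive measurements within 3 weeks of treatment. The sources used here do not state the age of the animals, many mice gave several tumours, and the genomic DNA holds no expression marker against which the tissue label could be checked. Tumours are numbered within a group only to name them.

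PI3K makes the membrane lipid PIP3, which recruits AKT, and AKT releases the kinase complex mTORC1 by inactivating the TSC1-TSC2 complex. The genes studied act against this flow at successive steps: on PI3K itself, on its lipid products, on phosphorylated AKT, and on mTOR. Loss of such brakes is a known way in which breast tumours raise AKT or mTORC1 signalling, and a mutagenic transposon inside a gene can disrupt it or, in one orientation, drive transcription from its own promoter.

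The sites that the account below turns on are given here with the 4 bases on each side of the insertion point, read on the strand deposited for the insertion in build mm10. Capitals mark the 4 bases before that point, where piggyBac is known to need TTAA, and 64 of the 66 kept sites had it.
Deptor, untreated tumour 34, chr15:55134949-55134956, minus strand: TTAAggga
Deptor, untreated tumour 70, chr15:55113838-55113845, minus strand: TTAAgaaa
Deptor, resistant tumour 26, chr15:55127851-55127858, minus strand: TTAAaaga
Inpp4b, untreated tumour 2, chr8:81963694-81963701, plus strand: TTAAataa
Inpp4b, resistant tumour 25, chr8:81492698-81492705, plus strand: TTAAagcg
Phlpp1, untreated tumour 80, chr1:106336805-106336812, minus strand: TTAAcatt
Phlpp2, resistant tumour 8, chr8:109920420-109920427, plus strand: TTAAaagg
Tsc1, resistant tumour 10, chr2:28689738-28689745, plus strand: TTAAaaag
Tsc1, untreated tumour 1, chr2:28642364-28642371, minus strand: TTAAtcaa
Tsc2, resistant tumour 9, chr17:24610138-24610145, plus strand: TTAAagct
Pik3r1, untreated tumour 36, chr13:101746346-101746353, plus strand: TTAAgcaa
Pik3r1, untreated tumour 3, chr13:101697297-101697304, minus strand: AACAcccc
Pik3r1, untreated tumour 35, chr13:101737467-101737474, plus strand: CTAAttaa
The last pair are the 2 kept sites without TTAA in that place, and both lay in Pik3r1. In untreated tumour 35 the letters TTAA stood directly after the insertion point instead.

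Depth differed widely between the libraries. Resistant libraries held 51 to 1604365 reads (median 136932) and untreated libraries 2950 to 938987 (median 48339), while the median number of kept sites was 473 per resistant tumour and 431 per untreated tumour. Titles came in 4 forms, TgTum and tgTum for untreated and Tgtumor and Mouse for resistant tumours, so title form and group cannot be told apart. The median number of kept sites was 730 in TgTum, 258 in tgTum, 637 in Tgtumor and 241.5 in Mouse libraries. Intervals below are exact 95% binomial intervals (Clopper-Pearson) and cover counting error only, and tumours of 1 mouse share an animal.

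At least 1 of the 8 brakes held a kept insertion in 29.4% of the resistant group (15 of 51 tumours, interval 17.5% to 43.8%) and in 30.9% of the untreated group (29 of 94, interval 21.7% to 41.2%). The shares differed by less than the width of either interval. Counted by mouse they lay farther apart: 10 of 25 treated mice (40%, interval 21.1% to 61.3%) and 17 of 23 untreated mice (73.9%, interval 51.6% to 89.8%) had a brake hit in some tumour, with means of 2.04 and 4.09 tumours per mouse. The part of the number of tumours per mouse in this gap was not tested. Inpp4b accounted for most of these tumours: a brake other than Inpp4b was hit in 7 of the resistant (13.7%, interval 5.70% to 26.3%) and 11 of the untreated tumours (11.7%, interval 5.99% to 20%). All of the 8 genes but Stk11 had a kept site, and 83% of all gene regions had one. None of the 4 brakes that were hit in at least 5 tumours, and so tested, passed the threshold (two-sided Fisher exact test over tumours, Benjamini-Hochberg adjusted p under 0.05 over all 2558 gene regions tested). Over all regions tested 0% passed as well, and 3.01% (77 regions) had an unadjusted p under 0.05, against 0 of the 4 brakes. The resistant share was higher for 1 of these 4 brakes and lower for 3, with a median difference of -1.08 percentage points. Over all regions tested it was higher in 53.1%, with a median difference of 0.563 points.

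**Figure D1:**
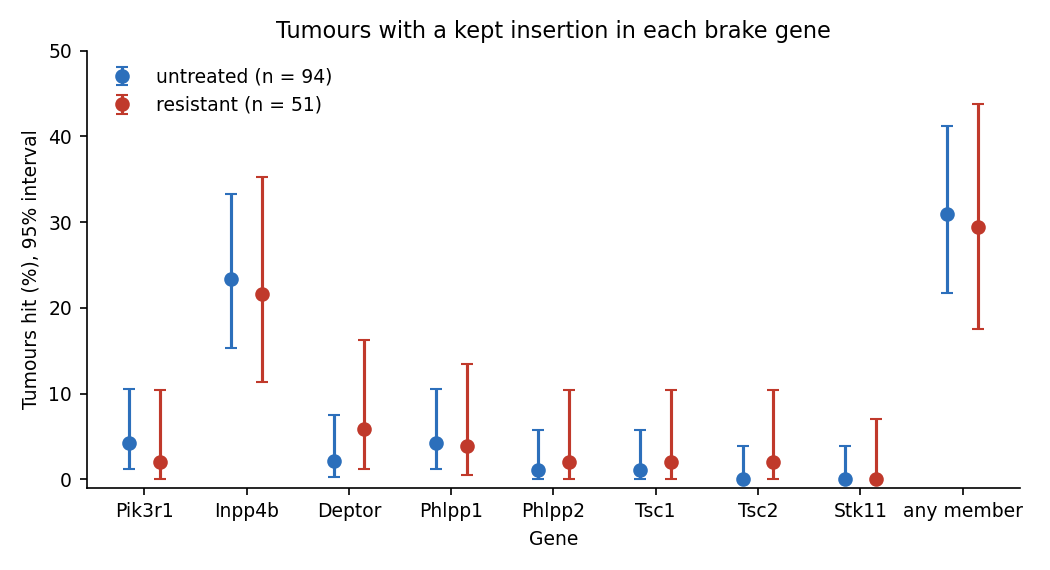
Share of tumours with at least 1 kept insertion in each gene (percent, points) with exact 95% intervals (bars), for 94 untreated and 51 resistant tumours. Inpp4b lies at 21.6% and 23.4% and every other gene at 5.88% or less, and the intervals of the groups overlap for each gene.

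Pik3r1 encodes p85 alpha, the regulatory subunit that holds the PI3K catalytic subunit stable and inactive until a receptor engages it. Its region (chr13:101680761-101770217, minus strand) held 5 kept sites. It was hit in 1 tumour of the resistant group (1.96%, interval 0.0496% to 10.4%) and in 4 untreated tumours (4.26%, interval 1.17% to 10.5%). The difference of -2.29 points had an interval of -8.68 to 6.44 points (Newcombe), with an odds ratio of 0.452 (exact 95% interval 0.00896 to 4.73) and an adjusted Fisher exact p of 1. The untreated hits had 170 reads in tumour 3, 123 in tumour 36, 26 in tumour 43 and 15 in tumour 35, whereas the 1 resistant hit, in tumour 21, had 12 reads. Tumours 35 and 36 came from 1 mouse. The sites of tumours 3 and 35 were the kept ones without TTAA before the insertion point. With such sites left out, only untreated tumours 36 and 43 and resistant tumour 21 kept a hit, too few to be tested. Pik3r1 has a long and a short transcript with separate starts in the RefSeq promoter table: 4 of the 5 kept sites lay between these starts, upstream of the short form, and 1 lay downstream of both. The site nearest to a start was 4.67 kb from that of the short form. Of the 5 sites, 3 were opposite to the gene in orientation, all of them in untreated tumours.

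Inpp4b encodes the 4-phosphatase that removes PI(3,4)P2, a product of PIP3 breakdown that also activates AKT, and it is known as a tumour suppressor of breast. It was the most often hit of the 8 genes in both groups. Its region (chr8:81340556-82125036, plus strand) spans 784 kb and listed 80 sites, of which 77 had reads and 45 were kept. Summed reads per tumour ran from 0 through a median of 0 to 820 in the resistant group and from 0 through a median of 0 to 1952 in the untreated group. At least 1 read lay in the region in 20 resistant and 34 untreated tumours, and a kept site in 11 resistant ones (21.6%, interval 11.3% to 35.3%) and 22 untreated tumours (23.4%, interval 15.3% to 33.3%). The difference was -1.84 points (interval -15 to 13.2), with an odds ratio of 0.901 (exact 95% interval 0.356 to 2.18) and an adjusted Fisher exact p of 1. The interval covers an excess of Inpp4b hits in either group. In counts by mouse, a mouse was hit if any of its tumours was. Treated mice gave a mean of 2.04 tumours and untreated mice 4.09, so untreated mice had more tumours in which a hit could fall. Counted by mouse, 9 of 25 treated and 14 of 23 untreated mice had a hit, a difference of -24.9 points (Fisher exact test over mice, p = 0.148), and a permutation of the group labels over mice gave p = 0.803 for the share of tumours (100000 resamples).

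Long gene regions were hit in many tumours. Over the 215 gene regions of more than 500 kb outside chromosome 10, the median share of tumours hit was 15.7% in the resistant and 14.9% in the untreated group. The density of Inpp4b, 5.74 kept sites per 100 kb, was above the median of 3.28 for these regions (quartiles 2.59 and 4.18), and 15 of the 215 (6.98%) were denser. Over all gene regions the median was 4.54 kept sites per 100 kb (quartiles 2.07 and 8.61). Chromosome 10 was set apart because it held 20.9% of all kept sites.

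The 45 Inpp4b sites were spread along the gene. From the 5′ end of the region, the first 25% of its length held 4 resistant and 9 untreated sites, the next 25% held 4 and 6, the next 4 and 10, and the last 2 and 6. The median distance from that end was 379 kb in resistant tumours (range 43.6 to 651) and 393 kb in untreated tumours (range 17.3 to 729). All 45 lay downstream of the RefSeq start, the nearest at 15.3 kb. In resistant tumours 8 sites had the orientation of the gene and 6 the opposite (57.1% same, interval 28.9% to 82.3%; exact binomial test, adjusted p = 1 over 864 regions, of which 0% passed and 2.66% had an unadjusted p under 0.05). In untreated tumours the counts were 17 and 14 (54.8% same, interval 36% to 72.7%; exact binomial test, adjusted p = 1 over 1521 regions, of which 0% passed and 2.96% had an unadjusted p under 0.05).

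**Figure D2:**
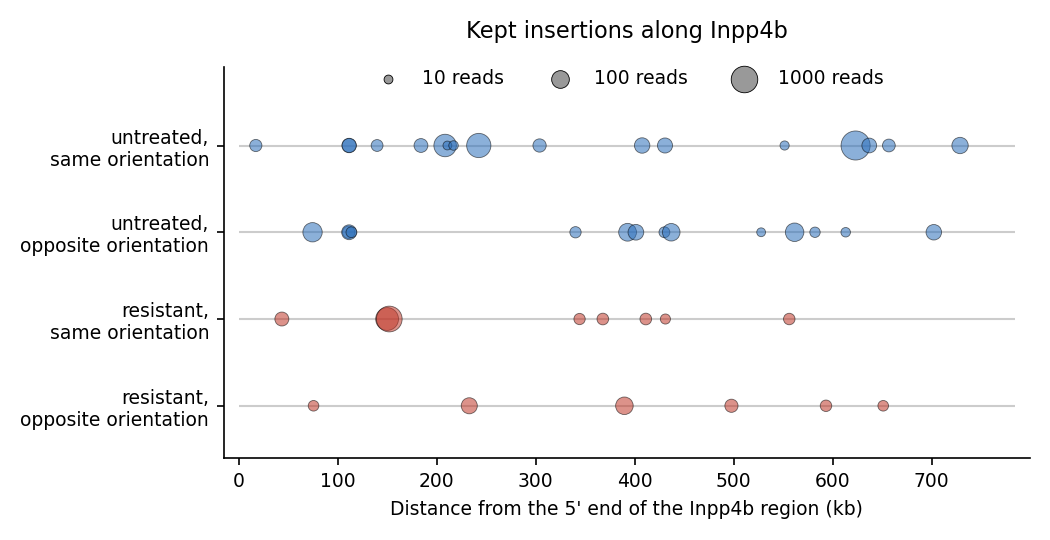
Each kept insertion in Inpp4b by its distance from the 5′ end of the gene region (kb) in 4 rows for group and orientation relative to the gene; point area grows with the squared log10 of reads. The 14 resistant and 31 untreated sites cover the region, with 5 untreated sites close together near 111 kb.

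The densest stretch of Inpp4b held 5 kept sites within 2776 bp, against an average of 0.287 per 5 kb of the region and a median gap of 10.5 kb between neighbouring sites. All 5 were in untreated tumours: 1 in tumour 39 and 2 in tumour 43, which came from the same mouse, and 2 in tumour 86, from another mouse. The stretch was picked as the densest of the gene, and no such stretch of another region was set beside it. One TTAA in this stretch was hit in both orientations, on the minus strand in tumour 39 (48 reads) and on the plus strand in tumour 86 (39 reads), and is shown on the plus strand with its 4 neighbouring bases on each side.
Inpp4b, chr8:81452078-81452089, plus strand: ttatTTAAagga
Neither of these positions had a read in another library. Such pairs were found across the series: 1162 pairs of kept sites on opposite strands stood 5 bases apart, 1147 of them with TTAA in both contexts, and no other offset from -5 to 15 gave more than 13 pairs.

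Several tumours held more than 1 Inpp4b site. In the resistant group tumours 10, 11 and 32 had 2 each, and in the untreated group 7 tumours had at least 2, with 3 each in tumours 39 and 43. The sites with the most reads were single ones. Untreated tumour 2 had 1951 reads at its site, 0.208% of that library and the 36th most-read position there, and resistant tumour 25 had 820 reads at its site, 0.160% of the library and rank 176. Untreated tumour 34 had fewer reads, 103, but a larger share of its library, 0.362%. The Inpp4b site of untreated tumour 77 had 97 reads there, 0.130% of the library and rank 330. Untreated tumour 79, from another mouse, had 49 reads at the same position, 0.169% of its library and rank 205. The tumour of origin thus rests on the most-reads rule, and the share of the library would name tumour 79.

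Deptor binds mTOR and inhibits its kinase activity in both mTOR complexes. Its region (chr15:55110317-55259273, plus strand) had 5 kept sites, and hits were found in 3 tumours under BYL719 (5.88%, interval 1.23% to 16.2%) and in 2 untreated ones (2.13%, interval 0.259% to 7.48%). It was the brake with the largest difference in favour of the resistant group, 3.75 points (interval -2.80 to 13.9; odds ratio 2.85, exact 95% interval 0.316 to 35.2), and the Fisher exact test gave an unadjusted p of 0.345 and an adjusted p of 1. The 5 tumours came from 5 mice. The resistant hits had 284 reads in tumour 26, 37 in tumour 35 and 11 in tumour 23. Each was a minor position of its library, at 0.0360% of the reads or less.

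The 2 untreated Deptor sites stood higher in their tumours than any other brake site. In tumour 34 the site had 2415 reads, 8.49% of all reads of that library, and was the second most-read of 1370 positions. Another 7 libraries had up to 2 reads at the same position and strand. In tumour 70 the site had 287 reads, 0.535% of the library, and ranked 14th of 895. These sites lay 24.6 kb and 3.5 kb from the 5′ end of the region, and 4 of the 5 Deptor sites lay within its first 25 kb and were opposite to the gene in orientation. The remaining site, in resistant tumour 35, lay 125.6 kb in and had the orientation of the gene. For Deptor the strand was taken from the end of the region that the authors had extended, and for the other 7 genes from RefSeq.

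Phlpp1 and Phlpp2 encode the phosphatases that remove the hydrophobic-motif phosphate from AKT. Phlpp1 (chr1:106169869-106394245, plus strand) was hit in 2 tumours under BYL719 (3.92%, interval 0.478% to 13.5%) and in 4 untreated ones (4.26%, interval 1.17% to 10.5%), a difference of -0.334 points (interval -7.14 to 9.31; odds ratio 0.919, exact 95% interval 0.0804 to 6.67; adjusted Fisher exact p = 1). The untreated hits had 260 reads in tumour 80, 88 in tumour 23, 22 in tumour 40 and 20 in tumour 3. That of tumour 80 was 0.365% of its library and ranked 41st. Both resistant hits, in tumours 10 and 35, had 33 reads, and the position of tumour 35 also had 32 reads in another library. Of the 6 Phlpp1 sites, 4 had the orientation of the gene, and all lay at least 40.6 kb downstream of the RefSeq start. Phlpp2 (chr8:109866603-109944671, plus strand) was hit once in each group, with 47 reads in resistant tumour 8 and 17 in untreated tumour 21, both in the orientation of the gene, and was hit in too few tumours to be tested. Its sites lay 49 and 53.8 kb from the 5′ end.

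Tsc1 and Tsc2 encode hamartin and tuberin, whose complex keeps the mTORC1 activator RHEB in its inactive form. Tsc1 (chr2:28639233-28691172, plus strand) was hit in 1 resistant tumour (1.96%, interval 0.0496% to 10.4%) and 1 untreated tumour (1.06%, interval 0.0269% to 5.79%). The untreated site, in tumour 1, had 16 reads, lay 1.13 kb after the RefSeq start and was opposite to the gene. It was the kept site closest to a start among the brakes matched in the promoter table. The resistant site, in tumour 10, had 24 reads and lay near the 3′ end, 50.5 kb into the region, in the orientation of the gene. Tsc2 (chr17:24595816-24634627, minus strand) had 1 site, with 20 reads in resistant tumour 9, and none in the 94 untreated tumours, a count that allows a share of up to 3.85%. Stk11 encodes the kinase LKB1, which restrains mTORC1 through AMPK, and it was the only one of the 8 genes without a kept site. Its region (chr10:80114347-80130470, plus strand) spans 16.1 kb, the shortest of the 8, and held 2 sites with 9 reads in all, both below the minimum. A count of 0 allows up to 6.98% of resistant and 3.85% of untreated tumours. Tsc1, Tsc2, Phlpp2 and Stk11 were hit in fewer than 5 tumours and were not tested between groups. For the other brakes tested, the difference between shares of mice was -9.04 points for Pik3r1 (Fisher exact test over mice, p = 0.338), -9.39 for Phlpp1 (p = 0.407) and 3.30 for Deptor (p = 1). As for Inpp4b, these shares are not adjusted for the larger number of tumours per untreated mouse.

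No kept site lay in the promoter window (250 bases before to 50 after a RefSeq start, assembly GRCm38.p6) of the 7 brakes found in that table, which had 8 windows in all. Deptor was not matched there. The windows are short, beside a median of 4.54 kept sites per 100 kb over all gene regions. Kept sites in the windows of other genes are not given here, so the absence cannot be called particular to the brakes.

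The kept brake sites were mostly minor positions of their tumours. In resistant tumours the 23 sites had 11 to 820 reads with a median of 24, a median share of 0.02% of the library, and none among the 100 most-read positions of its tumour. In untreated tumours the 43 sites had 10 to 2415 reads with a median of 39 and a median share of 0.0461%, and 8 of the 43 (18.6%) were among the 100 most-read. Over all gene regions, 11.5% of resistant and 13% of untreated kept sites were among the 100 most-read, and the median shares were 0.0305% and 0.0506%. At least 0.1% of the library reads lay at 3 of the 23 resistant sites (13%), all in Inpp4b, and at 14 of the 43 untreated sites (32.6%), beside 17.7% and 30.8% over all gene regions. Across the 8 genes 35 sites had the orientation of their gene and 31 the opposite, 56.5% same in resistant (interval 34.5% to 76.8%) and 51.2% in untreated tumours (interval 35.5% to 66.7%), beside 49.7% over all genes in each group.

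**Figure D3:**
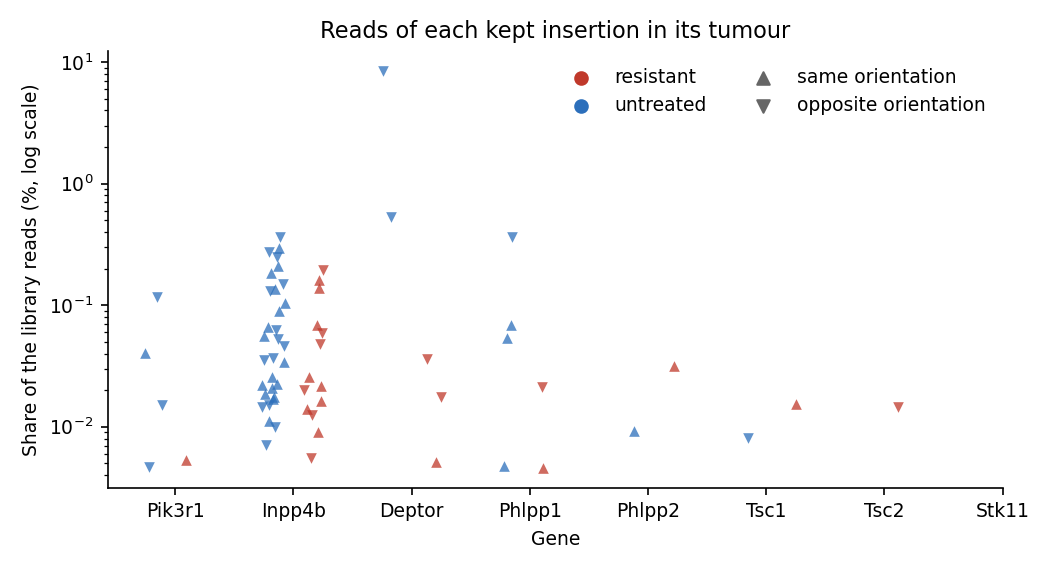
Reads of each kept insertion as percent of the reads of its library (log scale) by gene, group and orientation relative to the gene; points are shifted sideways at random. The Deptor site at 8.49% in an untreated tumour stands above all others, and no resistant site exceeds 0.193%.

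Near the minimum of 10 reads, 7 kept sites had 10 to 12 reads and 8 sites just outside had 7 to 9. The lowest kept sites were 2 Inpp4b sites with 10 reads, in untreated tumours 18 and 34. Just outside lay sites with 9 reads in Deptor (untreated tumour 86), Inpp4b (resistant tumour 11) and Phlpp1 (untreated tumour 76).

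Hits in the brakes went with the number of kept sites of a tumour. A brake hit is itself a kept site, so the hit rule builds in part of this relation. Other gene regions were not set beside the brakes here, so it cannot be called particular to them. The 15 resistant tumours with a hit had a median of 797 kept sites and the 36 without one 389. In the untreated group the medians were 1100 in the 29 tumours with a hit and 335 in the 65 without. None of the 29 tumours of both groups with under 200 kept sites had a brake hit. Inpp4b had hits in 2 of 18 resistant and 4 of 31 untreated libraries with 200 to under 500 kept sites (11.1% and 12.9%), in 4 of 12 and 5 of 22 with 500 to under 1000 (33.3% and 22.7%), and in 5 of 12 and 13 of 21 with 1000 or more (41.7% and 61.9%). Among tumours with at least 200 kept sites the groups lay closest in the lowest of these ranges and farthest apart in the highest, where the untreated share was higher. By title form, any brake was hit in 24 of 61 TgTum (39.3%), 5 of 33 tgTum (15.2%), 13 of 35 Tgtumor (37.1%) and 2 of 16 Mouse libraries (12.5%). The part of depth and title form in the shares was not tested.

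**Figure D4:**
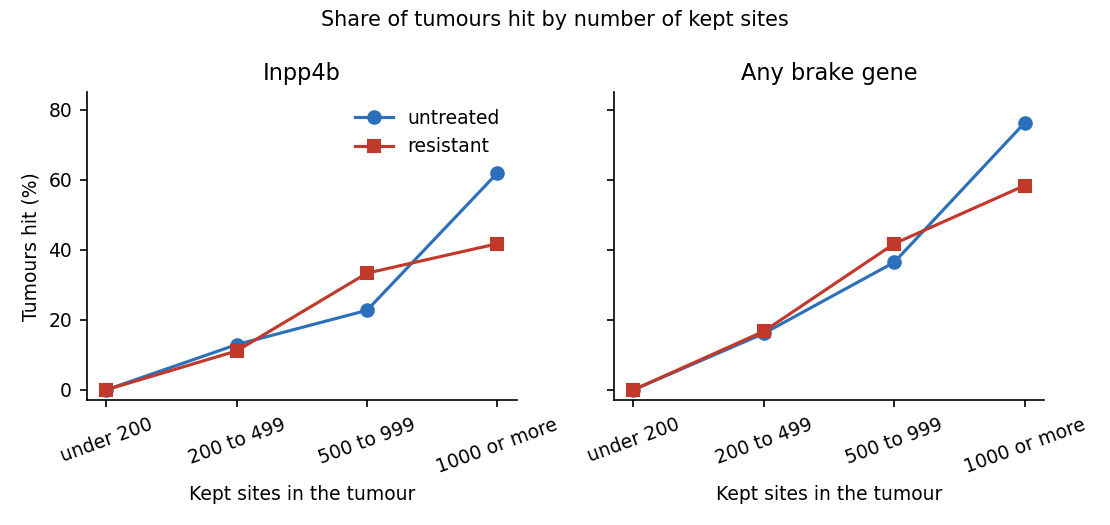
Share of tumours hit (percent) in Inpp4b (left) and in any of the 8 brakes (right) for tumours with under 200, 200 to under 500, 500 to under 1000 and 1000 or more kept sites, by group. Both shares are higher in each successive range in both groups, from 0% to 41.7% and 61.9% for Inpp4b and to 58.3% and 76.2% for any brake.

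Some hits came together in a tumour or a mouse. Among resistant tumours 36 had no brake hit, 11 had 1, 3 had 2 and 1 had 3 brakes hit, and among untreated tumours the counts were 65, 25, 3 and 1. Resistant tumour 10 held hits in Inpp4b, Tsc1 and Phlpp1, and untreated tumour 3 in Pik3r1, Inpp4b and Phlpp1. Deptor was hit beside Inpp4b in resistant tumour 23 and untreated tumour 34, and beside Phlpp1 in resistant tumour 35. Tumours with at least 2 brakes hit had up to 3321 kept sites. Only untreated tumour 34, with 377, lay below the median of 447 over all tumours. Joint hits among other gene regions were not counted, so no excess of joint brake hits can be read from these counts. Resistant tumours 8, 9 and 10 came from 1 mouse, whose tumours held hits in 5 brakes and the only resistant hits of Tsc1, Tsc2 and Phlpp2. These 3 tumours had 5740 kept sites in all. Without this mouse, 12 of 48 resistant tumours (25%) had a brake hit, Inpp4b was hit in 9 (18.8%) and Phlpp1 in 1 (2.08%), and the Tsc1 and Phlpp2 differences each changed sign to -1.06 points.

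Nf1, the RAS regulator named in the title of the study, was hit in 7 of the 15 resistant tumours with a brake hit (46.7%) and in 11 of the 36 without (30.6%). In untreated tumours it was hit in 4 of 29 (13.8%) and 4 of 65 (6.15%). In both groups the Nf1 share was higher beside a brake hit, as was the number of kept sites, and no test was made.

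The other genes of the pathway gave the same absence of calls. Of 41 other brakes 29 had a row, 25 were hit in some tumour and 8 could be tested, of which 0 passed, none had an unadjusted Fisher exact p under 0.05, and 4 had a higher and 4 a lower resistant share (median -0.136 points). Of 37 activators 31 had a row, 30 were hit and 9 could be tested, of which 0 passed and 1 had an unadjusted p under 0.05. That gene was Sgk1, a kinase related to AKT on chromosome 10, hit in 4 resistant and 22 untreated tumours (7.84% and 23.4%; Fisher exact p = 0.0230, adjusted p = 0.990). A lower resistant share at this unadjusted level was also found on chromosome 10 in Prep, Fam184a, Lrriq1, Trdn, Mthfd1l, Gm10754, Lims1, Ros1 and Prdm1. The share was higher there in Uhrf1bp1l, Septin10, L3mbtl3 and Osbpl8. Outside chromosome 10, a lower resistant share at this level was found in Slc4a4, Dlc1, Celf2, Cntnap4, Rbm6, Tox and Pisd-ps3. All other regions outside chromosome 10 at this level had a higher resistant share. The part of the chromosome in the Sgk1 difference was not tested. Activators had a higher resistant share in 3 cases and a lower one in 6 (median -0.668 points). Over all gene regions 83% were hit in some tumour. Of all regions tested, 3.01% had an unadjusted Fisher exact p under 0.05. The resistant share was higher in 53.1% of them, with a median difference of 0.563 points. With 8 and 9 genes tested, no departure from these shares can be read.

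The density of kept sites of the shorter brakes was set beside that of the 10156 gene regions under 100 kb outside chromosome 10. Pik3r1 had 5.59, Tsc1 3.85, Tsc2 2.58 and Phlpp2 2.56 kept sites per 100 kb, and 42.9%, 57.6%, 68.8% and 68.9% of those regions were denser. Among 1672 regions of 100 to 250 kb, 52.7% were denser than Deptor (3.36) and 65.6% denser than Phlpp1 (2.67). Of the 8 brakes, Inpp4b was thus the only one in the upper 25% of its size class, and no test of density was made.

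**Figure D5:**
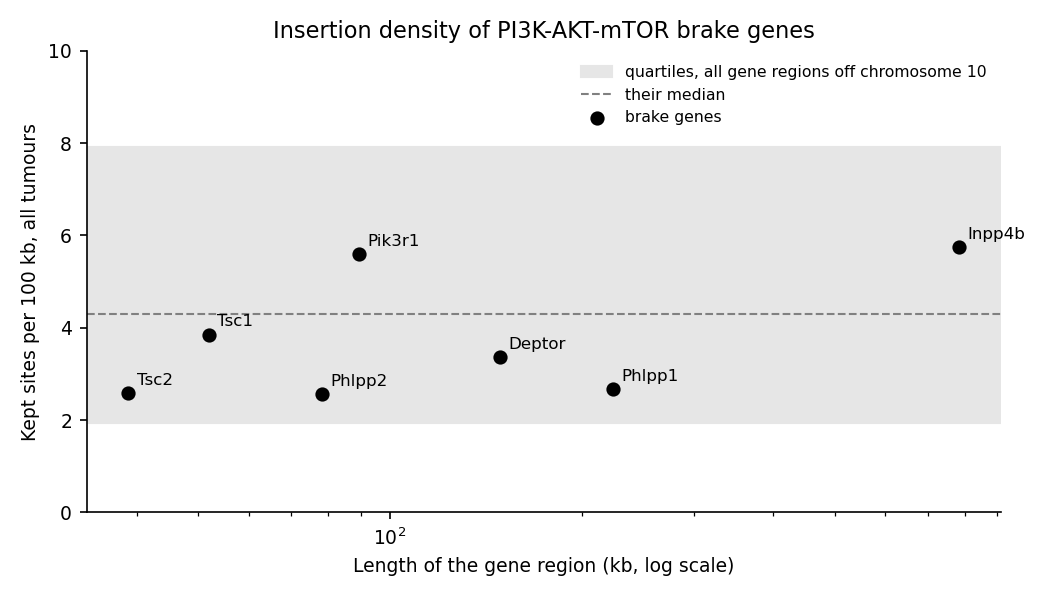
Kept sites of all tumours per 100 kb against the length of the gene region (kb, log scale) for the 7 brakes outside chromosome 10; the band spans the quartiles of all gene regions there (1.94 to 7.91) and the dashed line is their median (4.29). All 7 brakes lie within the band, with Inpp4b and Pik3r1 above the median.

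Further pathway genes hit in many tumours were FOXO factors, which AKT keeps out of the nucleus, and regulators upstream or beside AKT. Foxo1 was hit in 6 resistant and 5 untreated tumours (11.8% and 5.32%; Fisher exact p = 0.195), and Foxo3, on chromosome 10, in 3 and 12 (5.88% and 12.8%; Fisher exact p = 0.259). Sesn1, an inhibitor of mTORC1 activation on chromosome 10, was hit in 6 and 12 tumours (11.8% and 12.8%). The mTORC2 subunit gene Mapkap1 was hit in 3 and 9 (5.88% and 9.57%) and the growth factor receptor gene Igf1r in 4 and 8 (7.84% and 8.51%). The adjusted Fisher exact p was 1 for each of these 5 genes.

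In the authors' deposited table the numbers of tumours with an insertion were larger for several brakes. For Inpp4b the authors' deposited table gave 20 resistant (39.2%) and 34 untreated tumours (36.2%). For Deptor the authors' deposited table gave 7 (13.7%) and 10 (10.6%), and for Phlpp1 6 (11.8%) and 9 (9.57%). Over the 8 genes and both groups, 12 of the 16 tumour numbers of the authors' deposited table equalled the number of tumours with at least 1 read in the region, and 4 were lower. The signed −log10 p score of the authors' deposited table was highest for Stk11 in resistant tumours, 2.02, on 1 insertion, whereas for Inpp4b it was 0.08 in resistant and 0.09 in untreated tumours.

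The gene regions hit in the tumours most like those of Inpp4b were sought on other chromosomes, by the number of tumours with both hits over the number with either (Jaccard index) over all tumours. The highest were Grip1 on chromosome 10 (0.407, 24 tumours shared), a 3173 kb region of chromosome 6 without a RefSeq symbol (0.4, 22 shared) and Cul3 on chromosome 1 (0.375, 15 shared), against a median of 0.152 over 929 regions. Only regions hit in at least 10 tumours were compared. Grip1, the chromosome 6 region and Cul3 were hit in 50, 44 and 22 tumours, and Inpp4b in 33. The index depends on how many tumours a region was hit in, so the median is not a like-for-like background. The shared tumours had medians of 1407, 1149.5 and 1634 kept sites, above the 447 of all tumours.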

How the data were processed

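Genomic DNA was sheared, ligated to a splinkerette adaptor and amplified from the 5′ arm of the transposon, and 4 pools were sequenced with paired reads of 100 bp, per the labels' protocols. The submitters' processing notes name build mm10. The sources used here do not name an aligner, site caller or filters. The deposited site table gave unscaled read counts per site and library. A further deposited whole-number column of other kind, not defined in the file headers, was used only in an alternative, and 580 per-library columns were not used. The authors' region table gave insertions, percent of tumours hit and a signed −log10 p score per group.

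Sites inside the start and end of a gene region were assigned to it. Members and gene lists were chosen with earlier results of these data known. Groups came from the treatment labels and mice from titles, which named 48 mice where the labels state 53. Shares were compared with two-sided Fisher exact tests (scipy 1.17.1, Python 3.11.15) over regions hit in at least 5 tumours with Benjamini-Hochberg adjustment, and orientation with exact binomial tests over regions with at least 5 sites. Fisher exact tests over tumours treat tumours as independent, although tumours share mice. Binomial tests treat sites as independent, although sites share tumours and mice. Only the Fisher exact tests and the permutation over mice take mice as units. The code was tested on simulated data. Other pathway genes are named if hit in 8 or more tumours, at most 8 by number, or if their unadjusted p was under 0.05. Some of the genes so chosen are not reported here. Gene strand came from the RefSeq promoter table, or else from the extended end of the region, and these agreed in 91.9% of 9585 regions that had both. Without gene models, exons and introns were not assigned. Alternatives covered read minimum, depth scaling, shared positions, TTAA, libraries, title forms and mice as units.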

Additional observations from a re-analysis of the deposited data

How the results depend on the processing

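Wherever Inpp4b, Pik3r1, Phlpp1 or Deptor could be tested over tumours, the adjusted p was 1. Pik3r1, Phlpp1 and Deptor were hit in too few tumours under the stricter settings to be tested, and Tsc1, Tsc2, Phlpp2 and Stk11 under every setting. The number of gene regions that passed was 0 in the reported fit, 1 (Ctnna3, on chromosome 10) with sites of at least 0.1% of the library reads, and 14, none a brake, with positions kept in every tumour. The share of tumours with any brake hit, resistant and then untreated, was 43.1% and 36.2% at 1 read, 37.3% and 33% at 3 reads, 17.6% and 25.5% at 0.02% of the reads, 15.7% and 21.3% at 30 reads, 5.88% and 10.6% at 100 reads, 5.88% and 13.8% at 0.1% of the reads, 0% and 7.45% among the 100 most-read sites, 11.8% and 14.9% among the 300 most-read, 3.92% and 3.19% at 3 or more in the undefined column, and 12.5% and 15.2% for Mouse against tgTum. The Inpp4b difference turned positive at 1 read (5.51 points), 3 reads (0.855), the 300 most-read sites (1.13) and Mouse against tgTum (3.41). The Phlpp1 difference turned positive at 1 read (2.19 points), with positions kept in every tumour (1.63) and for Tgtumor against TgTum (0.796). The Phlpp2 difference, not tested, turned negative at 1 read (-0.167 points). The cause was not tested. Leaving out the mouse of resistant tumours 8 to 10, or libraries under 200 kept sites, was chosen after seeing the data and gave 25% and 30.9%, or 35.7% and 39.2%, for any brake.

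With 51 resistant tumours, rare hits gave wide intervals. No paired analysis was possible because tumour numbers were given in accession order and no mouse had tumours in both groups.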
